A study of Mus musculus with 10 samples.

Results

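Regions of the mouse genome that carried a called island of histone H4 butyrylation, and no called island of H4 acetylation at any stage, made up 6379 of the 58242 autosomal regions, or 10.95% (exact 95% binomial interval 10.7 to 11.2). They were found by merging the islands of all 8 deposited lists wherever they shared at least 1 bp, on chromosomes 1 to 19. A region was kept when at least 1 of the 4 butyryl lists had an island in it and none of the 4 acetyl lists did. The regions were thus chosen by measured values, the island calls of the 8 lists, and those calls are given as a description from which nothing is read. The other regions were 47465 with butyryl and acetyl islands and 4398 with acetyl islands only.

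The lists came from chromatin immunoprecipitation and sequencing (ChIP-seq) on mononucleosomes of fractionated testis cells, from mice of the strain Oncins France 1. The 2 stages were spermatocytes, the cells of meiosis, and the haploid round spermatids that arise from them. For each stage there was 1 library for each of H4K5ac, H4K5bu, H4K8ac and H4K8bu, and 1 input library from nucleosomes taken before immunoprecipitation. The labels gave no genotype, treatment, age or number of animals, and the purity of the fractions cannot be read from lists of islands. With 1 library per group no test was possible, and nothing below was set against the spread of replicates. Intervals of shares and folds cover counting error. Those of medians cover the sampling of regions, taken as independent, and are not the spread between regions. The reads carry no molecular identifiers and are not independent molecules, so the intervals are too narrow for the uncertainty of an experiment.

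Acetyl and butyryl groups are added to the same lysines of the H4 tail, and a butyryl group is the longer acyl chain. A given lysine can hold only one of them at a time, but a region holds many nucleosomes from many cells, so most places can be called for either group. In male germ cells the bromodomain protein Brdt binds H4 that is acetylated at both lysines and takes part in the later removal of histones, and a butyryl group on K5 hinders that binding. In what follows, an acetyl mark that was not called has not been shown to be absent.

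Most of these regions rested on a single library. One butyryl list alone called 5418 of the 6379 (84.9%, 84.0 to 85.8), where 21.1% of all regions with butyryl had a single butyryl list. Another 897 had 2 butyryl lists (14.1%, against 32.9%), 55 had 3 (0.862%, against 11.8%), and 9 (0.141%) had all 4, against 34.2% of all regions with butyryl for the full set. The acetyl-only regions were alike in this respect, with 85.4% (84.3 to 86.4) called in 1 acetyl list and none of 4398 in all 4, which allows a share of up to 0.0838%.

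H4K5bu gave more of these regions than H4K8bu in each stage. The H4K5bu list of round spermatids called 3206 of them (50.3%, 49.0 to 51.5) and that of spermatocytes 2053 (32.2%, 31.0 to 33.3). H4K8bu was called in 1113 for spermatocytes (17.4%, 16.5 to 18.4) and in 1041 for round spermatids (16.3%, 15.4 to 17.2). Over all autosomal regions the same lists covered 62.9%, 58.2%, 64% and 54.5% in that order. Read the other way, 8.76% (8.47 to 9.05) of the regions of round spermatid H4K5bu had no acetyl call in either stage, and 6.06% (5.81 to 6.32) of those of spermatocyte H4K5bu. The H4K8bu lists had 2.99% (2.82 to 3.16) for spermatocytes and 3.28% (3.09 to 3.48) for round spermatids. By residue, 4276 regions had H4K5bu only (67.0%, against 13.5% of all regions with butyryl) and 1233 had H4K8bu only (19.3%, against 8.39%). Both residues were called in 870 (13.6%, against 78.1%). These shares are set by the rule and are given as a description. With all 8 lists shortened to 28031 islands by fold, regions with H4K5bu only made up 48.8% of the class and those with H4K8bu only 32.4%.

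The leading combination was H4K5bu of round spermatids alone, with 2552 regions (40.01%, and 6.97% of all regions of that list). H4K5bu of spermatocytes alone followed with 1649 (25.9%, and 4.87% of all regions of its list). H4K8bu alone accounted for 736 regions in spermatocytes (11.5%, and 1.97% of its list) and 481 in round spermatids (7.54%, and 1.52% of its list). Calls of H4K5bu and H4K8bu together in a stage, with no other list, numbered 488 in round spermatids (7.65%) and 279 in spermatocytes (4.37%). Those were 1.64% and 0.918% of all regions that had both lists. With or without further lists, both residues were called in 532 regions in round spermatids (8.34%, against 55.3%) and 308 in spermatocytes (4.83%, against 56.4%). The remaining 9 combinations had 4 to 75 regions each.

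**Figure D1:**
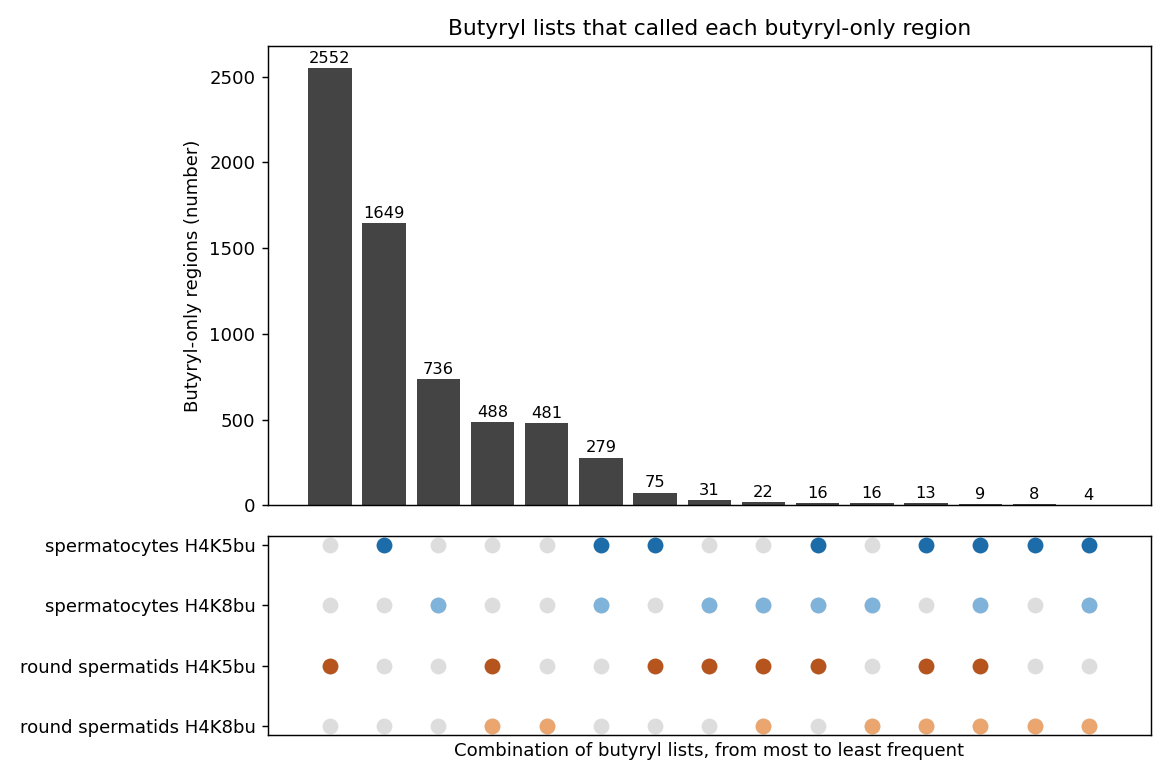
Number of butyryl-only regions (vertical axis) for each combination of the 4 butyryl lists, with filled dots under a bar marking the lists that called those regions. The 4 single-list combinations hold 2552, 1649, 736 and 481 regions, and the combinations that span the stages hold 75 or fewer.

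Few of these regions were called in both stages. Butyryl islands lay in spermatocytes only in 2664 (41.8%, against 28.4% of all regions with butyryl). They lay in round spermatids only in 3521 (55.2%, against 24.3%) and in both stages in 194 (3.04%, 2.63 to 3.49, against 47.3%). H4K5bu was called in both stages in 113 (1.77%, against 39.3%) and H4K8bu in 51 (0.799%, against 41.7%). In 39 (0.611%, against 0.496%) the stages shared no mark, with H4K5bu in one and H4K8bu in the other. Acetyl-only regions had acetyl islands in both stages in 2.73% (2.27 to 3.25), a share whose interval overlaps. When a region needed islands over at least 50% of its length to count as covered, the share of butyryl-only regions in both stages was 6.55% (6.04 to 7.10) of 8545. Under that rule, regions with acetyl islands over less than 50% of their length also entered the class.

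Some regions were called in a single pair of marks. Among regions called in exactly 2 of the 8 lists, both of the same stage, spermatocytes had 279 with H4K5bu and H4K8bu, which is 0.918% (0.814 to 1.03) of all regions that had both lists. They had 471 with H4K5ac and H4K8ac (1.57%, 1.43 to 1.72). Round spermatids had 488 with the butyryl pair (1.64%, 1.497 to 1.79) and 51 with the acetyl pair (0.217%, 0.161 to 0.285). Mixed pairs that included H4K5ac were the most frequent in each stage. H4K5ac paired with H4K8bu in 976 regions of spermatocytes (2.80% of those with both lists) and 562 of round spermatids (1.87%). It paired with H4K5bu in 757 (2.43%) and 1046 (3.33%). Pairs of H4K8ac with a butyryl mark were rarer than the butyryl pair in each stage. Spermatocytes had 223 with H4K5bu (0.795% of regions with both lists) and 184 with H4K8bu (0.626%). Round spermatids had 95 (0.403%) and 26 (0.112%). The H4K8ac list of round spermatids was the shortest of the 8, with 27526 autosomal islands, and the others had 33800 to 43505, and the part of list length in these counts was not tested.

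Butyryl-only regions were short and simple. Their median length was 2200 bp, with quartiles at 1600 and 3000 bp and extremes of 200 and 13600 bp. Acetyl-only regions had a median of 1800 bp and regions with both groups one of 4200 bp. Of regions of at most 1000 bp, 31.6% (29.4 to 33.9) were butyryl-only, and of those of 1001 to 2000 bp 27.1% (26.2 to 28.0). The share was 12.2% from 2001 to 4000 bp and 2.66% from 4001 to 10000 bp. Above 10000 bp only 5 of 6087 regions were butyryl-only. Acetyl-only regions filled 50.1% (47.7 to 52.5) of the shortest class and 6.13% of that from 2001 to 4000 bp. A longer region can meet more islands of the other lists, so length and the rule are not independent. In bases, butyryl-only regions covered 15.0 Mb, or 5.04% of all region bases. They held 2.05% of the ChIP reads inside autosomal islands for spermatocyte H4K5bu, 0.845% for spermatocyte H4K8bu, 2.27% for round spermatid H4K5bu and 1.02% for round spermatid H4K8bu, out of 7937840, 9101516, 9080192 and 8201772 reads.

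Their butyryl signal was low. The fold of a region is its ChIP reads over its input reads in the called islands, times a constant of the list that scales the ChIP library to its input. In spermatocytes the median H4K5bu fold was 2.42 (2.37 to 2.48) in 2053 butyryl-only regions and 4.15 (4.13 to 4.18) in 31842 regions that also had acetyl islands. The median H4K8bu fold of spermatocytes was 2.83 (2.75 to 2.90) and 4.49 (4.45 to 4.52). In round spermatids the medians were 2.40 (2.37 to 2.43) and 3.64 (3.62 to 3.65) for H4K5bu, and 2.37 (2.33 to 2.43) and 3.54 (3.52 to 3.56) for H4K8bu. The ranges nevertheless met, as the highest 5% of butyryl-only regions lay above 4.36, 6.16, 4.03 and 4.08 in the 4 lists in the order of this paragraph.

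A fold of at least 4 was reached by 159 butyryl-only regions for spermatocyte H4K5bu (7.74%, against 50.3% of all regions of that list). For spermatocyte H4K8bu it was reached by 234 (21.02%, against 56.8%). For round spermatids the numbers were 168 for H4K5bu (5.24%, against 38%) and 56 for H4K8bu (5.38%, against 35.6%). H4K8bu of spermatocytes thus had the largest part of strongly enriched regions in the class. Regions called in H4K8bu of spermatocytes alone had a median fold of 2.84, against 2.32 to 2.37 for regions called in 1 of the other butyryl lists alone.

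**Figure D2:**
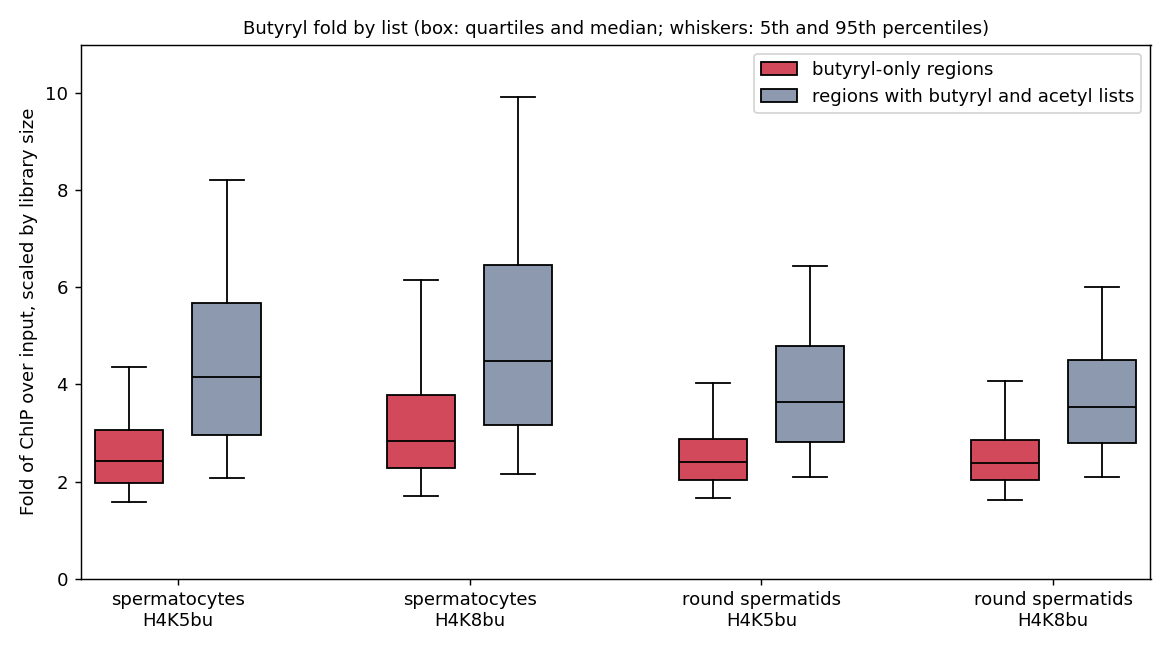
Butyryl fold over input (vertical axis) in butyryl-only regions and in regions with butyryl and acetyl lists, for the 4 butyryl lists, with boxes at the quartiles and whiskers at the 5th and 95th percentiles. The medians of butyryl-only regions lie between 2.37 and 2.83, and those of the other regions between 3.54 and 4.49.

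Single-list regions had lower median folds than regions with both groups in the same list, but the values differed between lists. In regions with both groups, the H4K5ac medians were 5.73 for spermatocytes and 4.62 for round spermatids. Those of H4K8ac were 4.21 and 3.12. With H4K5ac of spermatocytes alone, 1651 regions had a median fold of 3.94 (3.80 to 4.03), and with H4K5ac of round spermatids alone 1099 regions had one of 2.93 (2.86 to 2.98). With H4K8ac alone the median was 2.58 (2.49 to 2.69) in 859 regions of spermatocytes and 1.86 (1.78 to 1.98) in 147 of round spermatids. The H4K5bu values were lower than those of H4K5ac, with 2.35 (2.30 to 2.41) for the spermatocyte list and 2.37 (2.34 to 2.41) for the round spermatid list. Those of H4K8bu, 2.84 (2.75 to 2.92) and 2.32 (2.26 to 2.39), were higher than those of H4K8ac. Each difference is between 2 libraries, whose depth and antibody cannot be told apart from the mark.

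Along each butyryl list, the share of regions without an acetyl call declined with the fold, except at the top of round spermatid H4K8bu. There it went from 0.410% in the decile below the highest to 0.536% in the highest. Of the lowest decile of round spermatid H4K5bu, with folds of 1.10 to 2.22, 32.8% (31.3 to 34.4) were butyryl-only, and of the highest decile 0.7100% (0.464 to 1.04). For spermatocyte H4K5bu the shares were 23.8% (22.4 to 25.2) and 0.295% (0.142 to 0.542). The H4K8bu list went from 9.47% to 0.295% for spermatocytes and from 14.02% to 0.536% for round spermatids. The acetyl lists showed the same form for acetyl-only regions, from 11.6% to 1.38% for spermatocyte H4K5ac and from 14.5% to 0.432% for round spermatid H4K5ac.

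Input reads moved with the class too. The median input was 16.9 reads per kb (16.7 to 17.1) in the spermatocyte H4K5bu islands of butyryl-only regions and 14.3 in those of the other regions. For spermatocyte H4K8bu the medians were 15.4 and 14.2, for round spermatid H4K5bu 19.2 and 17.5, and for round spermatid H4K8bu 19.0 and 17.5. In the decile of spermatocyte H4K5bu regions with the densest input, 15.8% (14.5 to 17.02) were butyryl-only, against 1.45% (1.07 to 1.91) in the decile with the sparsest. For round spermatid H4K5bu the shares were 19.5% (18.2 to 20.8) and 6.66% (5.88 to 7.52). H4K8bu had 5.04% in the densest and 2.39% in the sparsest decile for spermatocytes, and for round spermatids 7.78% and 2.55%. Only for spermatocyte H4K5bu did the share rise in every decile. The lowest shares of the other lists lay between the ends. They were 1.74% for spermatocyte H4K8bu, 1.67% for round spermatid H4K8bu and 4.64% for round spermatid H4K5bu. Input is the denominator of the fold, so dense input and low fold go together by construction, and the part of input density in the class was not tested.

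**Figure D3:**
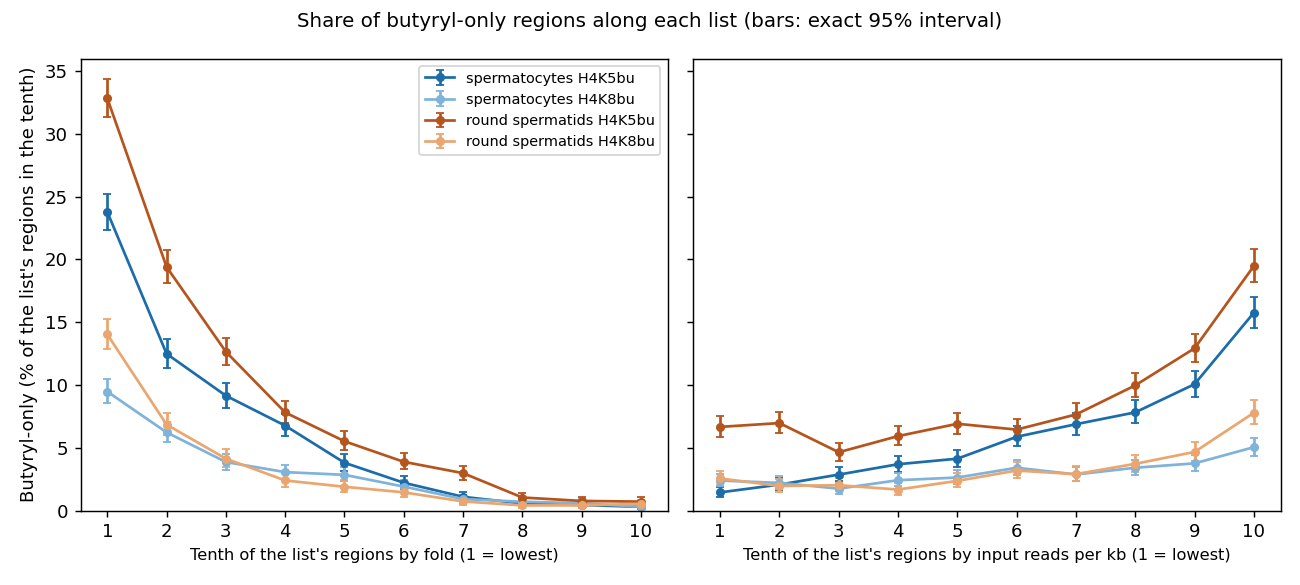
Percent of the regions of each butyryl list that are butyryl-only (vertical axis), by decile of fold on the left and by decile of input reads per kb on the right, with exact 95% intervals. From the lowest to the highest fold the share goes from 32.8% to 0.7100% for round spermatid H4K5bu. From the sparsest to the densest input it goes from 6.66% to 19.5%, with a low of 4.64% in between.

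How far could the acetyl lists have called these places? The deposited p-values equal the Poisson probability of more ChIP reads than seen, given the scaled input reads, to within 0.01 on the log10 scale for every island whose p-value was not extremely small. From this and the largest p-value of a list, the lowest callable acetyl fold was computed for the input reads of each butyryl-only region. Its median was 1.54 for H4K5ac and 1.45 for H4K8ac at the spermatocyte H4K5bu islands, and 1.62 and 1.49 at the round spermatid H4K5bu islands. The butyryl islands had themselves passed a limit of this kind over the same input, so their own folds are no measure of how often acetylation would have been called.

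The p-value is not the only step, since SICER first joins windows that are dense in ChIP reads. Density was therefore compared as well, as ChIP reads per kb of island scaled to the size of the input library. Spermatocyte H4K5bu islands of butyryl-only regions had a median of 40.9 scaled reads per kb. Of all H4K5ac regions of spermatocytes, 95% lay above 43.1, and only 837 of these 2053 butyryl-only regions (40.8%, 38.6 to 42.9) exceeded that value. For H4K8ac of spermatocytes the corresponding value was 36.2, and 69.8% (67.8 to 71.8) exceeded it. In round spermatids, H4K5bu islands had a median of 46.2, with 48.8% (47.01 to 50.5) above the value of H4K5ac (46.7) and 84.2% (82.9 to 85.5) above that of H4K8ac (39.0). Of the spermatocyte H4K8bu regions 53.01% exceeded the value of H4K5ac and 78.6% that of H4K8ac, and of those of round spermatids 45.4% and 76.9%. Many butyryl-only regions thus had a density below that of 95% of the H4K5ac regions, and in each list fewer lay below the corresponding value of H4K8ac. Whether an acetyl signal of that density would have been called was not tested.

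Gaps from butyryl-only regions to acetyl islands were measured without random places of the genome set beside them. The median gap to the nearest acetyl island of any list was 8600 bp (8200 to 9000), with quartiles at 3200 and 20800 bp. An acetyl island lay within 5 kb of 2213 (34.7%, 33.5 to 35.9), within 10 kb of 3444 (54.0%, 52.8 to 55.2) and within 50 kb of 5894 (92.4%, 91.7 to 93.04). Acetyl-only regions were farther from butyryl islands, with a median gap of 13000 bp (12400 to 13600) and 23.5% (22.2 to 24.8) within 5 kb. Butyryl-only regions were set against the acetyl lists and acetyl-only regions against the butyryl lists, which differ in their number of islands, and the part of that in the difference was not tested. Without regard to the mark, the nearest other region was 6800 bp away (6400 to 7000) from a butyryl-only region, 9400 bp (9400 to 9600) from a region with both groups and 11600 bp (10800 to 12000) from an acetyl-only region. The gap of butyryl-only regions to acetyl islands depended on how the class was made. The median was 14200 bp (13600 to 14800) with lists of equal length. With islands less than 1000 bp apart merged it was 10000 bp (9600 to 10600). It was 4600 bp (4400 to 4800) when a list had to cover at least 50% of a region. That last class took in regions with acetyl islands over less than 50% of their length, which have no gap to an acetyl island.

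**Figure D4:**
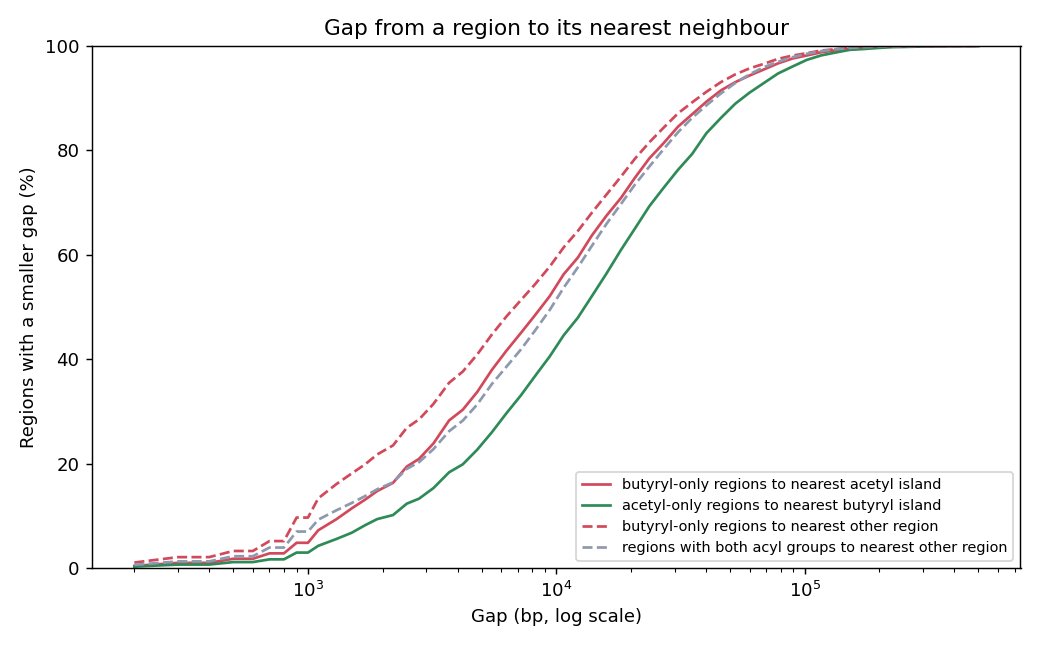
Cumulative percent of regions (vertical axis) by the gap to the nearest neighbour in bp (horizontal axis, log scale), with solid lines for islands of the other acyl group and dashed lines for any other region. By 5000 bp 34.7% of butyryl-only regions have met an acetyl island and 23.5% of acetyl-only regions a butyryl island.

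The nearest other region had both groups in 5266 cases (82.6%, 81.6 to 83.5), where such regions are 81.5% of all. It had all 4 marks in spermatocytes in 50.6% (49.4 to 51.8), against 46.6% of all regions, and all 4 in round spermatids in 47.5% (46.2 to 48.7), against 39.2%. For acetyl-only regions these shares were 44.7% (43.3 to 46.2) and 35.7% (34.3 to 37.1). Another butyryl-only region was the neighbour in 11.7% (10.96 to 12.6), and 10.95% of all regions belong to the class. Regions butyrylated in spermatocytes only had a median gap of 10400 bp to an acetyl island of spermatocytes and 14400 bp to one of round spermatids. Those butyrylated in round spermatids only were 11200 bp from an acetyl island of round spermatids and 12200 bp from one of spermatocytes. Regions butyrylated in both stages had the smallest of these gaps, 6700 and 6600 bp.

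Where H4K5bu and H4K8bu were called together in a butyryl-only region of a stage, their islands shared bases in every case. The median share of the shorter one that the other covered was 100% in each stage, as in regions with acetyl islands. Of the bases covered by either list, summed over 308 such regions, 63.1% were covered by both in spermatocytes, against 71.1% in regions with acetyl islands. In round spermatids it was 59.3% over 532 regions, against 75.9%. The rule joined islands only where they shared bases. Sharing was thus fixed in advance in regions with no further list, 279 of the 308 in spermatocytes and 488 of the 532 in round spermatids. Nothing is read from it. In spermatocytes the median fold was 3.01 for H4K8bu and 2.85 for H4K5bu, and the median ratio of H4K8bu to H4K5bu was 1.03 (1.00 to 1.06). The ratio was above 1 in 173 of 308 (56.2%), against 75.3% of all regions with both lists, and the median ratio in regions with acetyl islands was 1.17 (1.16 to 1.17). In round spermatids the ratio was 0.990 (0.970 to 1.01), and it was above 1 in 254 of 532 (47.7%), against 39.8%. Regions with acetyl islands there had 0.9503 (0.948 to 0.953). H4K8bu was at least 1.5 times H4K5bu in 35 of 308 regions in spermatocytes (11.4%, against 14.7%) and in 14 of 532 in round spermatids (2.63%, against 1.71%). H4K5bu was at least 1.5 times H4K8bu in 16 (5.19%, against 1.85%) and 37 (6.95%, against 5.11%). The 2 lists of a stage share an input library, so their folds are not independent.

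Between the stages, the folds of butyryl-only regions called in each had median ratios near 1. Low folds on both sides leave less room for large ratios, and their part in the shares below was not tested. Each ratio rests on 1 library per stage. For H4K5bu, 113 regions had a median fold of 2.30 in spermatocytes and 2.44 in round spermatids, with a median ratio of 1.02 (0.960 to 1.08). It was above 1 in 60 (53.1%, against 44.3%). The ratio reached 1.5 in favour of round spermatids in 9 (7.96%, against 17.9% of all regions with both lists) and in favour of spermatocytes in 12 (10.6%, against 20.7%). For H4K8bu, 51 regions had medians of 2.23 and 2.35 and a ratio of 1.04 (0.949 to 1.12), above 1 in 30 (58.8%, against 37.6%), with 4 (7.84%, against 11.8%) and 5 (9.80%, against 35.6%) past 1.5 in each direction. In regions with acetyl islands the H4K8bu ratio was lower, 0.824 (0.816 to 0.833).

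The 9 regions called in all 4 butyryl lists are the most often observed members. They were 2400 to 6600 bp long and lay 800 to 9800 bp from the nearest acetyl island. Their folds ran from 2.27 to 3.81 for spermatocyte H4K5bu, from 1.59 to 4.18 for spermatocyte H4K8bu, from 2.06 to 3.95 for round spermatid H4K5bu and from 1.89 to 3.63 for round spermatid H4K8bu. In every one of them the intervals of the stages overlapped for each mark.

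The region with the most butyryl reads among them lay at chr2:49314401-49321000 (mm9, counted from 1). It had 128 ChIP over 67 input reads for spermatocyte H4K5bu, a fold of 2.27 (1.67 to 3.09), and 118 over 88 for spermatocyte H4K8bu, a fold of 1.59 (1.19 to 2.12). In round spermatids it had 158 over 90 reads for H4K5bu, a fold of 2.59 (1.99 to 3.39), and 103 over 83 for H4K8bu, a fold of 1.897 (1.41 to 2.56). H4K5bu was the higher mark in each stage, though its interval overlapped that of H4K8bu. At chr2:162814801-162819000, H4K5bu had a fold of 2.74 (1.75 to 4.40) in spermatocytes, against 2.15 (1.53 to 3.05) at the later stage, and H4K8bu one of 2.02 (1.48 to 2.77), against 1.91 (1.46 to 2.51).

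At chr4:131995001-131999400, H4K5bu had a fold of 3.81 (2.56 to 5.82) in spermatocytes, against 2.06 (1.35 to 3.18) at the later stage, and H4K8bu one of 4.18 (2.87 to 6.23), against 2.49 (1.798 to 3.47). This region had the highest H4K8bu fold of the 9. At chr3:32303201-32309000, the folds of H4K5bu were 2.56 (1.57 to 4.30) and, later, 2.63 (1.82 to 3.85), and those of H4K8bu 1.84 (1.34 to 2.54) and 1.93 (1.48 to 2.52). At chr13:59463401-59467000, those of H4K5bu were 3.28 (2.14 to 5.17) and 3.15 (2.01 to 5.03), and those of H4K8bu 3.55 (2.36 to 5.48) and 1.89 (1.38 to 2.58). There, H4K8bu of round spermatids stood lowest, over 77 input reads where the other lists had 30 to 32, and its island covered the full 3600 bp.

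**Figure D5:**
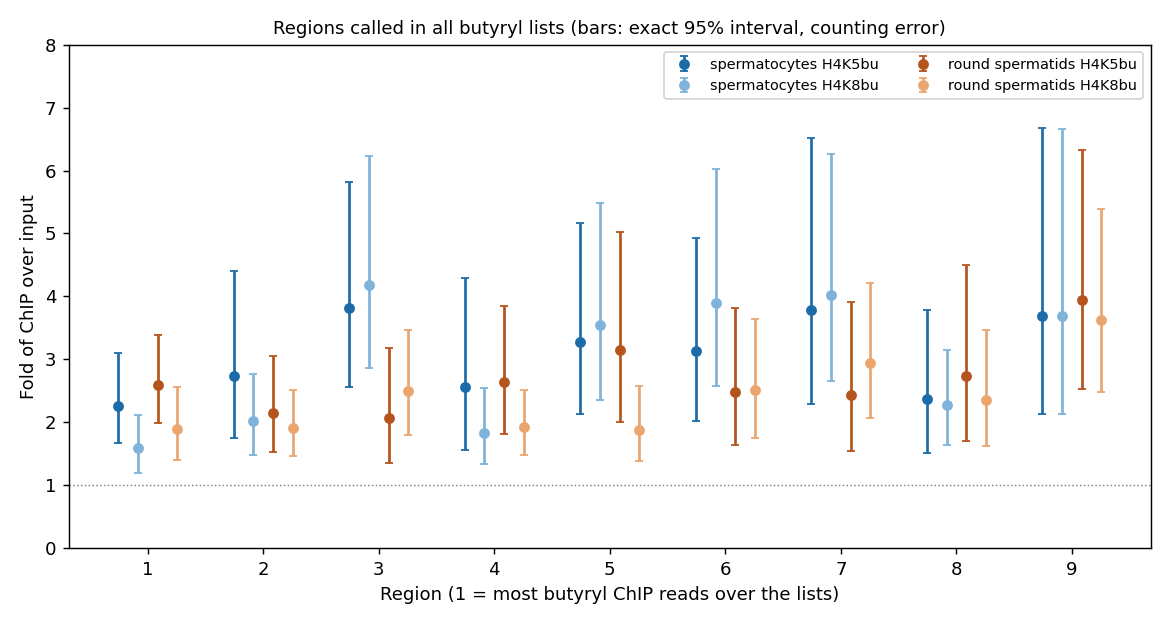
Fold over input (vertical axis) in the 4 butyryl lists for the 9 regions called in all of them (horizontal axis, ordered by total butyryl ChIP reads), with exact 95% intervals for counting error. All folds lie between 1.59 and 4.18, and the intervals of the stages overlap for each mark.

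The members with the most ChIP reads were of another kind, long or over deep input. At chr13:65724201-65737800, the longest region of the class, 576 ChIP over 602 input reads gave an H4K5bu fold of 1.14 (1.01 to 1.28) in spermatocytes, with 44.3 input reads per kb and an acetyl island 800 bp away. At chr10:43950601-43957600, round spermatid H4K5bu had 358 over 426 reads, a fold of 1.24 (1.07 to 1.43), at 60.9 input reads per kb. At chr17:30904001-30913800 the same list had 294 over 353 reads, a fold of 1.23 (1.05 to 1.44). Round spermatid H4K8bu had 228 over 278 reads at chr10:57157401-57163600, a fold of 1.25 (1.05 to 1.499). None of these 4 regions was called in a second butyryl list.

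Others with many reads had 16.5 to 28.2 input reads per kb and more than 1 call. At chr18:67852001-67862400, spermatocyte H4K5bu had 261 over 161 reads, a fold of 1.92 (1.57 to 2.36), and spermatocyte H4K8bu 173 over 115, a fold of 1.78 (1.40 to 2.28). Round spermatid H4K8bu was called there too, at 1.84 (1.35 to 2.52). At chr3:103092001-103103000, round spermatids had 253 over 181 reads for H4K8bu, a fold of 2.14 (1.76 to 2.60), and 140 over 95 for H4K5bu, a fold of 2.17 (1.66 to 2.85). At chr1:24618601-24623000, spermatocytes had 169 over 124 reads for H4K8bu, a fold of 1.61 (1.27 to 2.05), and 80 over 62 for H4K5bu, a fold of 1.53 (1.09 to 2.17).

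Among islands with at least 50 ChIP reads, the 5 highest folds in the class all came from H4K8bu of spermatocytes over 2 to 8 input reads. At chr4:80519801-80521400, 56 ChIP over 2 input reads gave a fold of 33.2 (8.76 to 280.5) in an island of 800 bp. The H4K5bu island of the same region, 1600 bp long, had 63 over 21 reads and a fold of 3.56 (2.14 to 6.14). At chr6:30959201-30961400, 50 over 4 reads gave 14.8 (5.43 to 56.4) for H4K8bu, beside 3.52 (2.29 to 5.56) for H4K5bu. The others were called in H4K8bu of spermatocytes alone. They lay at chr7:107197601-107198600, chr2:152739601-152740800 and chr5:129023001-129024600, with folds of 15.1 (5.55 to 57.5), 12.6 (5.05 to 40.2) and 11.8 (5.73 to 28.4) over 4, 5 and 8 input reads. With 2.5 to 5 input reads per kb, against a median of 15.4 in the class, these folds rest on a sparse denominator.

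The member farthest from any acetyl island, among those with at least 50 ChIP reads in a butyryl list, lay at chr12:20366401-20368400, 449600 bp away. It had 81 over 28 reads for spermatocyte H4K8bu, a fold of 3.43 (2.205 to 5.47). The next, at chr4:113219801-113221200, was 338800 bp away and had 50 over 33 reads for round spermatid H4K5bu, a fold of 2.23 (1.41 to 3.58). The densest input lay at chr1:183672401-183674000, with 75.6 input reads per kb and a round spermatid H4K5bu fold of 1.34 (1.03 to 1.75). At chr14:8703001-8704200 it was 75 reads per kb, with folds of 1.31 (0.957 to 1.79) for H4K5bu and 1.32 (0.966 to 1.81) for H4K8bu of round spermatids.

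At the edge of the rule, the members with the highest best q-value lay at chr6:84968201-84973000, chr13:65510801-65514600 and chr4:145765401-145770200. Their folds were 1.25 for spermatocyte H4K8bu, 1.26 for spermatocyte H4K5bu and 1.203 for round spermatid H4K8bu, with q-values of 0.00997, 0.00995 and 0.00924. Just outside were 9610 regions with butyryl and exactly 1 acetyl list, whose acetyl fold had a median of 3.51 and a 5th percentile of 2.02. The lowest acetyl fold among them, 1.12 (0.988 to 1.28) for spermatocyte H4K8ac, lay at chr13:65579201-65600400, with an H4K5bu fold of 1.23 (1.12 to 1.36). The next lay at chr5:15050801-15055600 and chr5:15182801-15188200, with round spermatid H4K8ac folds of 1.13 (1.01 to 1.26) and 1.16 (1.05 to 1.29) at 160.7 and 151.9 input reads per kb. At such places the presence or absence of 1 weak call decided membership.

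Along the genome, butyryl-only regions were found on every autosome. Their share of a chromosome's regions ran from 9.17% (8.05 to 10.4) on chromosome 17 and 9.52% (8.53 to 10.6) on chromosome 8 to 12.4% (11.3 to 13.6) on chromosome 9 and 12.8% (11.6 to 14.2) on chromosome 12, around the 10.95% of all autosomes. Of 2414 windows of 1 Mb that held any region, 2090 (86.6%) held a butyryl-only one, with a median of 2. The median gap from a member to its nearest other member, on either side, was 97 kb, and 659 (10.3%) lay within 10 kb of another. These gaps skip regions of the other classes, for which the same share was not computed. The fullest windows, picked after their values were seen, each held 16. They were at chr13:66000001-67000000, with 75 regions in all, and at chr18:35000001-36000000, with 51. The window before the first, chr13:65000001-66000000, held 13 of 54, among them the member of most H4K5bu reads and one of those nearest the q-value limit.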

How the data were processed

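The deposited files were 8 island lists, 1 per immunoprecipitated library. The submitters' processing notes, per the labels, name Bowtie2 2.2.5, SICER, CASAVA 1.8.2 and deepTools 1.5.11, with mouse build mm9; settings and the handling of duplicate reads are not given in the sources used here. Each deposited island has a count of ChIP reads, a count of input reads, a p-value, a fold (the authors' ratio of ChIP to input scaled by 1 constant per list) and a q-value, all below 0.01. Islands were merged with Python 3.11.15 and pandas 2.3.3. Reads of a list's islands in a region were summed and scaled by that constant. Intervals (scipy 1.17.1) are exact Clopper-Pearson for shares, conditional binomial for folds and from order statistics for medians. The code was tested on simulated data. No test was run, since each group had 1 library. Regions were named by a rule: per butyryl list the 2 with most ChIP reads, the 5 in most lists, the 5 of highest fold, the 2 farthest from acetyl islands, the 2 with densest input and 3 on each side of the class limit. The members and all lists were chosen with earlier results of these data known. No mm9 genome or annotation was at hand, so no genes are named and no sequences are shown. Alternatives were wider merging, stricter q-values, equal list lengths, a 50% coverage rule and a minimum of 50 reads.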

Additional observations from a re-analysis of the deposited data

Results flagged for a closer look

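Mitochondrial DNA lies outside the chromosomes compared and carries no nucleosomes, yet it held butyryl islands and no acetyl island, a signal in data that entered no comparison. In spermatocytes, the island from position 1 to 16200 had a fold of 1.16 (1.06 to 1.28) for H4K5bu, from 864 ChIP over 881 input reads, and 1.18 (1.07 to 1.296) for H4K8bu, from 877 over the same input. In round spermatids, H4K5bu had islands from 201 to 6600, with a fold of 1.42 (1.16 to 1.73), and from 11001 to 15800, with a fold of 1.27 (1.01 to 1.59). H4K8bu of round spermatids had none.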

How the results depend on the processing

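All lists come from 1 library per mark and stage, so no leave-one-out check exists, and no paired analysis was possible because each group has 1 library and the labels carry no replicate numbers. The number of butyryl-only regions stayed within 1.5 times of 6379 under the 6 alternatives, from 5028 with equal lists to 8545 with the 50% rule. With lists of equal length, the median length was 1800 bp, 80.2% were called in 1 list and 2.51% in both stages, the median fold over regions and lists was 3.40 in place of 2.46, and the median gap to acetyl islands 14200 bp. With the 50% rule these values were 2400 bp, 76.5%, 6.55%, 2.54 and 4600 bp. That rule let in regions with acetyl islands over less than 50% of their length, which have no gap to an acetyl island. With at least 50 ChIP reads, 82.6% were called in 1 list and 3.50% in both stages, with a fold of 2.41 and a gap of 8000 bp. A q-value below 1e-05 took the fold to 2.51 in all lists or 2.53 in the butyryl lists alone, and merging across 1000 bp took the gap to 10000 bp. In these settings the regions numbered 6028, 5857 and 5782 in turn, with a median length of 2000 bp in place of 2200 bp. The remaining shares, folds and gaps stayed inside the intervals of the main setting. Some of these shifts are set by construction. Lists of equal length keep only the islands of highest fold and hold fewer acetyl islands, and merging across 1000 bp leaves no gap below 1000 bp. How much of each shift comes from such steps was not tested. A median member had 59 to 76 ChIP reads in a list, and depth was not varied.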

Other observations

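On X, 102 of 1685 regions were butyryl-only (6.05%, 4.96 to 7.30) and 273 were acetyl-only (16.2%, 14.5 to 18.05). On autosomes, butyryl-only regions outnumbered acetyl-only ones, at 10.95% (10.7 to 11.2) against 7.55% (7.34 to 7.77). On Y, 4 of 61 regions were butyryl-only and 9 were acetyl-only, numbers too small to set apart. The difference between X and the autosomes was not tested, since each group had 1 library.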
